A study of Caenorhabditis elegans with 6 samples.

Results

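The 10 genes described here were listed as machinery that makes 22G-RNAs in *Caenorhabditis elegans*, and the values count 22G-RNAs antisense to those same genes. They were taken by name as an RNA-dependent RNA polymerase module (*ego-1*, *rrf-1*, *rrf-2*, *drh-3*, *ekl-1*) and a mutator group (*mut-7*, *mut-14*, *mut-15*, *mut-16*, *rde-8*), and are 10 of 22336 counted loci. The choice used names and known function, not a threshold on a value, though earlier results of these data were known. The study asked how loss of *lotr-1*, which encodes a germ granule protein with LOTUS and Tudor domains, alters small RNAs. Wild-type N2 was sequenced as 3 libraries, and each of the strains RFK592 with *lotr-1(xf58)*, RFK593 with *lotr-1(xf60)* and RFK594 with *lotr-1(xf61)* was sequenced as 1 library. All animals were whole gravid adults collected 63 hours after arrested larvae were put on bacterial plates, and all RNA was treated with RppH, an enzyme that trims a terminal triphosphate. The alleles are different deletions made in N2 by CRISPR/Cas9 and outcrossed, of which xf58 keeps the reading frame and takes out most of the LOTUS region. Each allele is represented by 1 strain, and the study used them as 3 replicates of 1 mutant group. The p-values therefore rest on the spread between strains in that group, pooled with that between samples in wild-type.

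22G-RNAs are short antisense RNAs that begin with a guanosine and are loaded onto Argonaute proteins. RNA-dependent RNA polymerases synthesise them directly on messenger RNAs in perinuclear germ granules, so a gene that has antisense 22G-RNAs has served as a template. In the germline EGO-1 and RRF-1 supply the polymerase activity, DRH-3, a Dicer-related helicase, and EKL-1, a Tudor-domain protein, work with them in a core complex, and mutator proteins assemble on the scaffold MUT-16 in Mutator foci. Genes of this machinery can themselves be templates, which is what the counts below measure. The level of their messenger RNAs and proteins was not analysed here. In whole animals fewer germ cells and less 22G-RNA per cell cannot be told apart.

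The 10 genes lie on 4 chromosomes of the WBcel235 build, 6 of them on chromosome I together with *lotr-1*. Of the polymerases, *ego-1* spans I:7650341-7656338 and *rrf-1* spans I:7643431-7649777, both on the minus strand, as neighbours separated by 563 bases. The gene *rrf-2* spans I:12098664-12106112 on the minus strand. Their partners *drh-3* (I:7820831-7826378) and *ekl-1* (I:7095486-7098400) are on the plus strand. Among the mutators, *mut-16* is at I:10080159-10085765 on the plus strand and *mut-7* at III:9539031-9542380 on the minus strand. Chromosome V carries *mut-14* (V:5658713-5660704, minus strand) and *mut-15* (V:15002543-15005067, plus strand). The last, *rde-8*, is at IV:7101379-7103261 on the minus strand. All are protein-coding, and no other counted gene with coordinates in the annotation used overlaps any of them on either strand. Their exons cover between 1114 bases (*rde-8*) and 5291 bases (*ego-1*).

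The libraries held between 3706296 and 4520488 22G-RNA counts. A locus was tested when it passed a filter on low counts, as 9285 loci and all 10 genes did. Wild-type libraries and mutant libraries spread their counts differently over loci, so the scaling matters. TMM factors, which assume that most loci do not differ, were 1.36 to 1.39 in wild-type libraries and 0.657 to 0.843 in mutant libraries. With these factors 58.9% of all tested loci had an edgeR adjusted p under 0.1, so the assumption may not hold here. With TMM the median log2 fold change of all tested loci was 0.01, and with library totals alone it was -0.88. Normalized counts below are TMM-normalized unless library totals are named, and the values of the mutant libraries always stand in the order xf58, xf60, xf61. As a check of the labels, *lotr-1* itself had 245, 293 and 275 counts in wild-type against 88, 20 and 47 in the mutants, which is lower in every mutant library. With TMM its log2 fold change was -1.48 (edgeR adjusted p = 0.0184). The drop is a weak check, because 17.6% of all tested loci were called lower with TMM and 44.7% with library totals (thresholds below). The common dispersion, a measure of spread beyond counting error, was 0.00181 among the wild-type libraries and 0.125 among the mutant strains. The fit pooled the spread of both groups for each locus, so its p-values match the spread of neither group alone. For *lotr-1* the deletions remove part of the sequence counted, and the rest of the gene can still give counts.

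In wild-type all 10 genes were templates at a level above that of most protein-coding genes. Divided by exon length, the level ran from 56.8 ± 3.55 normalized counts per kb for *ekl-1* to 324 ± 9.28 for *mut-14* (mean ± SD, n = 3). The median of 19725 protein-coding genes was 3.10 per kb, the 75% quantile was 37.8 and the 90% quantile was 109. Thus each of the 10 was above the 75% quantile and *mut-14*, *mut-15*, *rrf-2* and *mut-7* were above the 90% quantile. Among those genes the helicase gene *mut-14* ranked 761 and *mut-15*, which encodes a Mutator focus protein, ranked 773 with 316 ± 15.5 per kb, and the libraries of these 2 genes overlapped. Next came *rrf-2* with 212 ± 4.29 per kb at rank 1086 and *mut-7* with 128 ± 10.4 at rank 1690, each apart from its neighbours in the order in all 3 libraries. The next 5 genes lay close together, from *rrf-1* with 79.1 ± 3.02 per kb through *rde-8* with 78.1 ± 15.8, *ego-1* with 72.6 ± 3.30 and *mut-16* with 71.6 ± 5.69 to *drh-3* with 69.6 ± 8.13. Each neighbouring pair among those 5 overlapped between libraries. The lowest was *ekl-1* at rank 3642, whose libraries lay below those of *drh-3* but overlapped those of *rde-8*.

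**Figure D1:**
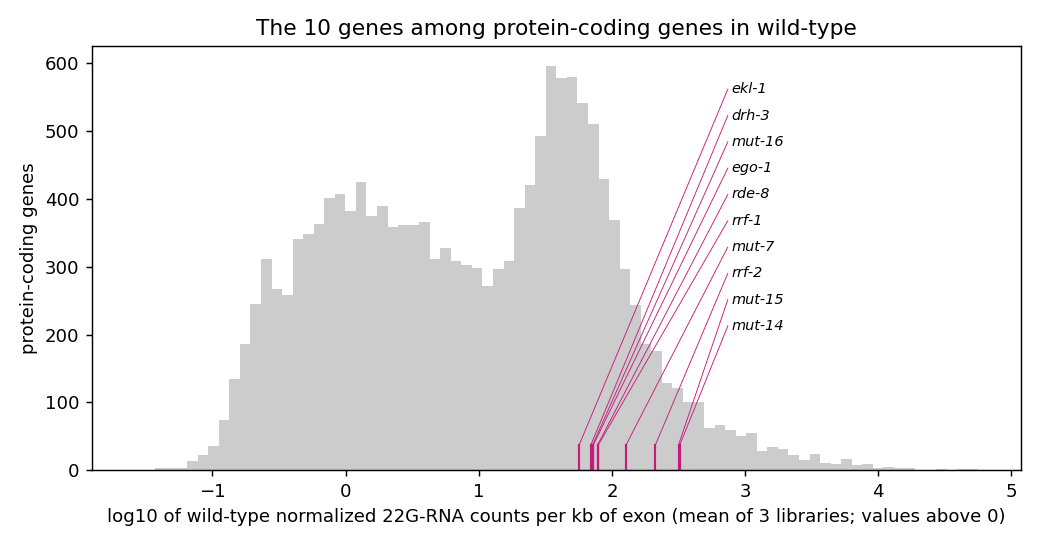
Histogram of the wild-type level of 22G-RNAs in protein-coding genes with any count, as log10 of the mean normalized count per kb of exon over 3 libraries (x axis) against the number of genes (y axis). Ticks mark the 10 genes, which sit between 56.8 per kb for *ekl-1* and 324 per kb for *mut-14*, on the right of the distribution.

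With TMM, 1 of the 10 genes was called higher in the mutants and 1 was called lower. 22G-RNAs antisense to *rrf-2* were 3.12-fold higher, and those antisense to *rde-8* were 4.06-fold lower. A gene was called when the edgeR quasi-likelihood test gave a Benjamini-Hochberg adjusted p under 0.1, taken over all 9285 loci, and the change was over 2-fold. These 2 calls are 20% of the genes, against 36.4% of all tested loci (18.8% called higher and 17.6% called lower). With library totals *rrf-2* was under 2-fold (log2 fold change 0.71) and not called, while *rde-8* was still called lower. At smaller sizes of change, 7 of the 10 had an adjusted p under 0.1, with *rrf-1*, *drh-3*, *ekl-1* and *rde-8* lower and *rrf-2*, *mut-14* and *mut-16* higher, of which *mut-14* and *mut-16* turned lower with library totals. That is 70% against 58.9% of all tested loci. The count of 7 varied with single libraries and with the tool, a comparison added after the data had been seen. With wild-type replicate 1, 2 or 3 left out it was 5, 4 or 3, beside 48.6%, 47.5% or 47.3% of all tested loci. Without xf58, xf60 or xf61 it was 8, 5 or 4, beside 70.3%, 51.1% or 49.5%. In those 6 fits, *rrf-1*, *rrf-2* and *rde-8* were past the threshold each time. DESeq2's test of no change gave 5, without *drh-3* (adjusted p = 0.13) and *mut-16* (adjusted p = 0.115), beside 55.5% of all tested loci. The wild-type and mutant libraries did not overlap for 8 of the 10 genes, or 80%, against 61.8% of all tested loci, and *mut-7* and *mut-15* were the genes that overlapped. The median log2 fold change of the 10 genes was -0.03, beside 0.01 for all tested loci.

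**Figure D2:**
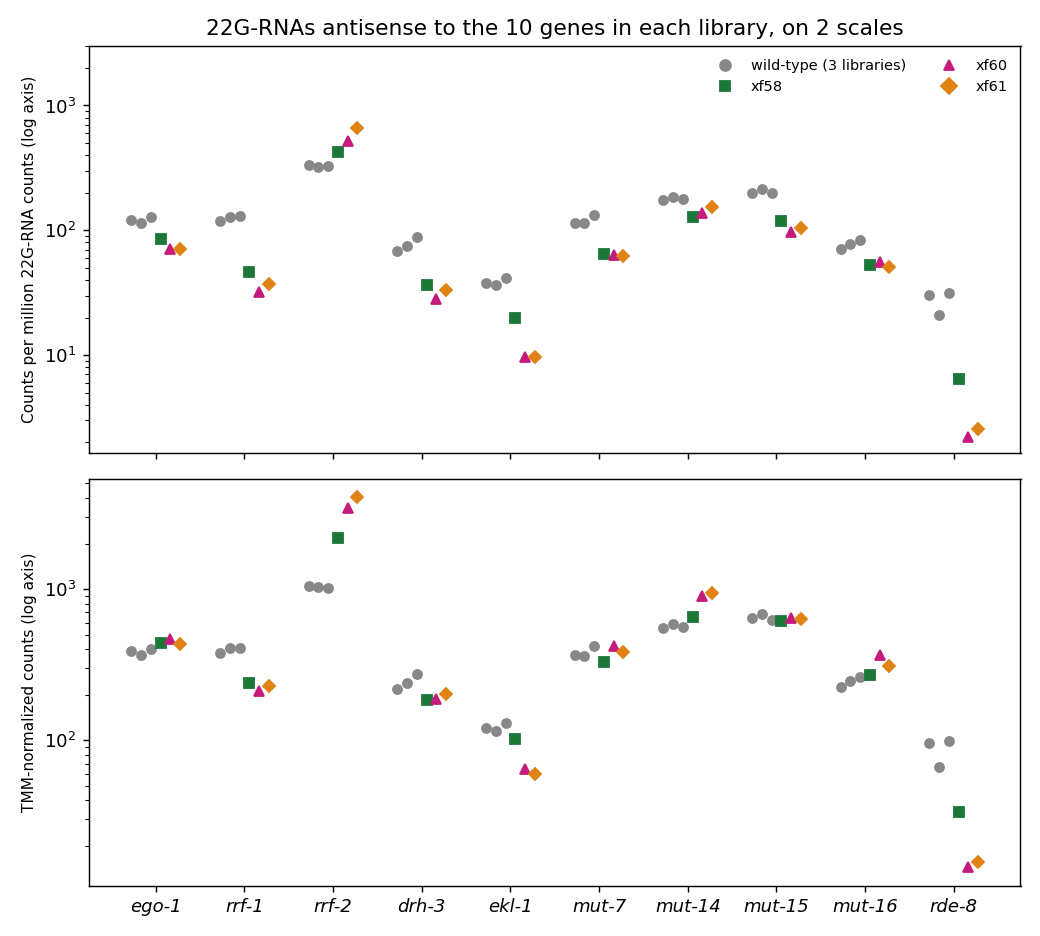
CPM (counts scaled to library totals, top) and TMM-normalized counts (bottom) of each gene in each library, both on log axes, with 3 wild-type libraries in grey and 1 library for each allele in colour. On the bottom scale *ego-1*, *rrf-2*, *mut-14* and *mut-16* are higher and *rrf-1*, *drh-3*, *ekl-1* and *rde-8* lower in every mutant library. On the top scale *rrf-2* is the gene that is higher.

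The 3 polymerase genes differed from each other. The gene *ego-1* encodes the polymerase needed for fertility and for many germline 22G-RNAs. It had 388, 365 and 399 normalized counts in wild-type against 440, 466 and 435 in the mutants. Every mutant library was above every wild-type library, by a small margin. The log2 fold change of *ego-1* was 0.22 (SE 0.13, 95% interval -0.09 to 0.52, edgeR adjusted p = 0.196), which misses the threshold, and with library totals the direction turned to -0.68.

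RRF-1 is the polymerase that acts beside EGO-1 in the germline and in somatic RNA interference. Its gene had 380, 406 and 407 normalized counts in wild-type against 239, 212 and 227 in the mutants. The mutant libraries were all lower and the gap was wider than either group's range. Its log2 fold change was -0.82 (SE 0.13, 95% interval -1.13 to -0.51, edgeR adjusted p = 0.00213), below the 2-fold cutoff. With library totals it was -1.70 and passed both thresholds (edgeR adjusted p = 0.000407). The adjacent gene *ego-1*, on the same strand, had missed the threshold on the TMM scale.

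The third polymerase gene, *rrf-2*, belongs to the same family. It had 1055, 1025 and 1015 normalized counts in wild-type against 2184, 3415 and 4053 in the mutants. Wild-type libraries were nearly alike and every mutant library was far above them, with xf58 the lowest of the mutants. The log2 fold change of *rrf-2* was 1.64 (SE 0.23, 95% interval 1.10 to 2.18, edgeR adjusted p = 0.00112). In counts scaled to library totals (CPM) it was at 331, 323 and 326 in wild-type against 426, 519 and 663 in the mutants, so it was also higher in every mutant library without TMM. On that scale the log2 fold change was 0.71 (edgeR adjusted p = 0.00965), under 2-fold, and DESeq2's test against a 2-fold change also missed the threshold for *rrf-2* (adjusted p = 0.137).

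The partner genes *drh-3* and *ekl-1* were both lower in all mutant libraries, though neither reached 2-fold. For *drh-3* the normalized counts were 219, 239 and 275 in wild-type against 185, 186 and 203 in the mutants. The groups did not overlap but came close. Its log2 fold change was -0.35 (SE 0.15, 95% interval -0.69 to -0.01, edgeR adjusted p = 0.0812). The gene *ekl-1* had 120, 115 and 130 normalized counts in wild-type against 101, 64.1 and 59.5 in the mutants. Here xf58 lay nearer to wild-type than to the other alleles. The log2 fold change of *ekl-1* was -0.70 (SE 0.22, 95% interval -1.21 to -0.18, edgeR adjusted p = 0.0333). With library totals both genes passed both thresholds, *drh-3* at -1.25 and *ekl-1* at -1.57 on the log2 scale.

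Of the mutator genes, *mut-7* and *mut-15* had overlapping groups on the TMM scale. MUT-7 has an exonuclease domain, and its gene had 364, 363 and 417 normalized counts in wild-type against 331, 417 and 382 in the mutants. The groups overlapped. The log2 fold change was -0.02, and its 95% interval of -0.37 to 0.34 (edgeR adjusted p = 0.926) leaves out a change of 2-fold on the TMM scale. For *mut-15* the values were 639, 686 and 625 in wild-type against 613, 641 and 637 in the mutants. These groups overlapped too, and the log2 fold change of -0.04 had an interval of -0.35 to 0.26 (edgeR adjusted p = 0.796). On library totals both were lower on the log2 scale, at -0.93 for *mut-7* (95% interval -1.26 to -0.60) and -0.94 for *mut-15* (-1.28 to -0.61). Both of these intervals include a 2-fold drop. Both values are close to the median of all tested loci on that scale.

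The genes *mut-14* and *mut-16* were higher on the TMM scale in every mutant library and turned lower with library totals. MUT-14 is a DEAD-box helicase of Mutator foci. Its gene had 554, 584 and 558 normalized counts in wild-type against 657, 905 and 936 in the mutants. The wild-type libraries were tightly grouped and xf58 was the nearest mutant to them. The log2 fold change of *mut-14* was 0.56 (SE 0.17, 95% interval 0.15 to 0.97, edgeR adjusted p = 0.0327) with TMM and -0.36 with library totals. The scaffold gene *mut-16* had 224, 247 and 263 normalized counts in wild-type against 271, 365 and 309 in the mutants. The lowest mutant library was just above the highest wild-type library. Its log2 fold change was 0.36 (SE 0.16, 95% interval -0.02 to 0.74, edgeR adjusted p = 0.098) with TMM and -0.55 with library totals.

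RDE-8 is an endoribonuclease that cuts target messenger RNAs in RNA interference and helps polymerases to use them as templates. Its gene had 126, 95 and 119 raw counts in wild-type against 24, 9 and 11 in the mutants. Exact Poisson 95% intervals, which cover counting error only, were 15.4 to 35.7 for the 24 counts of xf58, 4.12 to 17.1 for the 9 of xf60 and 5.49 to 19.7 for the 11 of xf61, while the lowest wild-type count of 95 had 76.9 to 116. No mutant interval reached a wild-type one. In normalized counts *rde-8* was at 96.3, 66.7 and 98.0 in wild-type against 33.2, 14.4 and 15.6 in the mutants. The log2 fold change of *rde-8* was -2.02 (SE 0.33, 95% interval -2.80 to -1.25, edgeR adjusted p = 0.00219) with TMM and -2.89 with library totals. It was the gene of the 10 that passed both thresholds in the same direction on both scales.

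On library totals the 10 genes therefore gave another split. In CPM 9 of the 10 were lower in every mutant library than in any wild-type library, and *rrf-2* was higher, so that 10 of 10 did not overlap, against 77.7% of all tested loci on that scale. Passing both thresholds on that scale were 4 lower genes (*rrf-1*, *drh-3*, *ekl-1* and *rde-8*) and 0 higher ones, with 1 higher gene, *rrf-2*, at an unadjusted edgeR p under 0.05. The background on that scale was 44.7% of tested loci called lower and 8.68% called higher. The median log2 fold change of the 10 genes was -0.94 there, beside -0.88 for all tested loci. The 3 genes whose direction depended on the scale were *ego-1*, *mut-14* and *mut-16*.

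**Figure D3:**
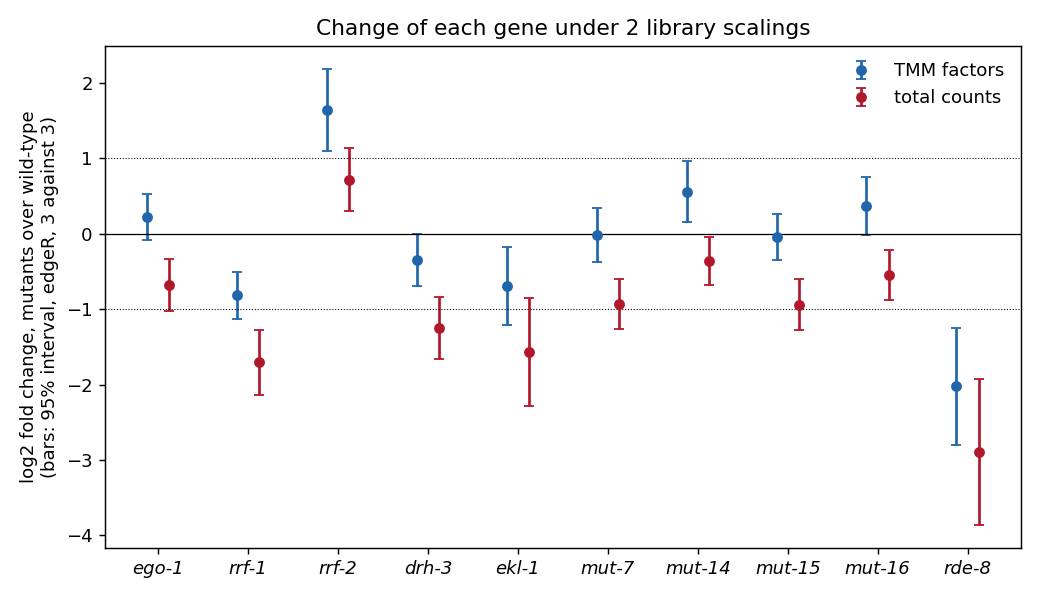
Log2 fold change of each gene, mutants over wild-type (y axis), from edgeR with TMM factors and with library totals, with bars for the 95% interval (3 libraries against 3) and dotted lines at 2-fold. The estimates with library totals sit lower for every gene, *rde-8* is past -1 on both (-2.02 and -2.89), and *rrf-2* is past 1 with TMM only (1.64 and 0.71).

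Together the 10 genes took 0.127%, 0.129% and 0.134% of all 22G-RNA counts in wild-type against 0.0986%, 0.102% and 0.119% in the mutants. The mutant shares were all below the wild-type ones. Within that pool *rrf-2* held 26.1%, 25.02% and 24.2% of the counts in wild-type against 43.2%, 51.1% and 55.9% in the mutants. So in xf60 and xf61 *rrf-2* alone had more counts than the other 9 genes summed. Those 9 genes gave 936, 968 and 1017 CPM in wild-type against 560, 497 and 524 in the mutants. On the TMM scale their sum overlapped between groups, with 2985, 3072 and 3172 in wild-type against 2869, 3271 and 3204 in the mutants.

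Per kb of exon the order of the genes changed with the genotype. In the mutants *rrf-2* came first with 662 ± 196 normalized counts per kb and *mut-14* followed with 476 ± 87.6 (mean ± SD, n = 3), with overlapping libraries. Below them were *mut-15* with 307 ± 7.51, which in wild-type had been above *rrf-2*, and *mut-7* with 126 ± 14.5. The gene *rde-8*, level with *rrf-1* and *ego-1* in wild-type, was last in the mutants with 18.9 ± 9.44 per kb, overlapping with *ekl-1* above it at 34.9 ± 10.6. These orders describe the means and carry no test.

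Ratios of raw counts of a pair of genes within 1 library do not depend on any scaling, and 4 such ratios were chosen after the values had been seen. The ratio of *rrf-1* to its neighbour *ego-1* was 0.978, 1.11 and 1.02 in wild-type against 0.544, 0.454 and 0.521 in the mutants. The mutant ratios were all lower and tightly grouped (0.506 ± 0.0470 against 1.04 ± 0.0683, SD, n = 3). Between *rrf-2* and *ego-1* the ratio was 2.72, 2.81 and 2.54 in wild-type against 4.97, 7.32 and 9.32 in the mutants. Here the alleles were spread, with xf58 nearest to wild-type. The ratio of *rde-8* to *mut-16* was 0.430, 0.270 and 0.373 in wild-type against 0.122, 0.0395 and 0.0505 in the mutants. None of these groups overlapped, and the two-sided exact permutation p was 0.1 for each, the smallest that 3 against 3 allows. Because the pairs were picked from values already seen, this p is no test of them and the ratios are descriptive.

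**Figure D4:**
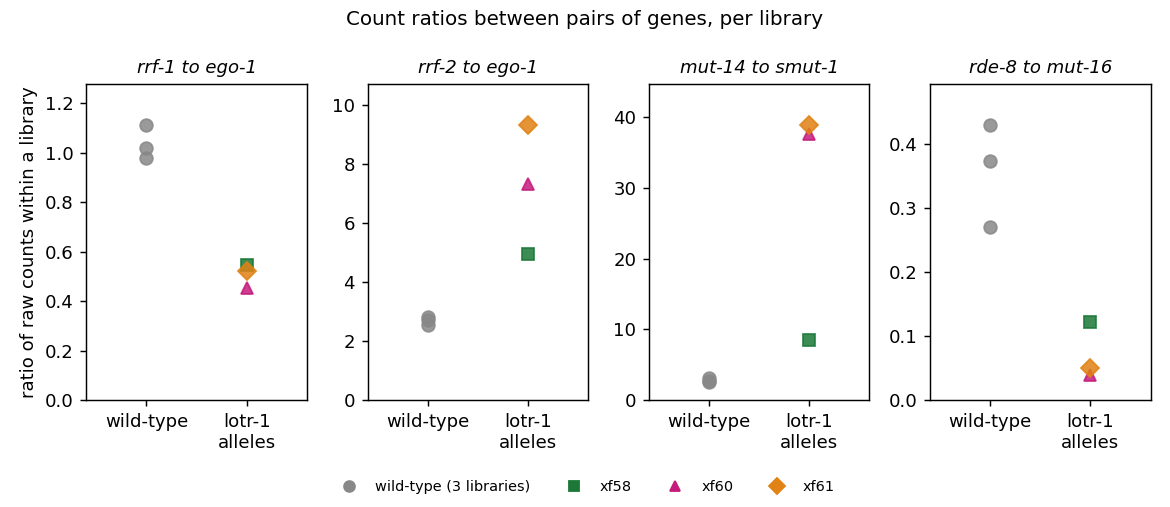
Ratios of raw 22G-RNA counts of 4 pairs of genes within each library (y axes start at 0), with wild-type libraries in grey and 1 coloured point per allele. The mutant points lie below wild-type for *rrf-1* to *ego-1* and *rde-8* to *mut-16* and above it for *rrf-2* to *ego-1* and *mut-14* to *smut-1*.

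The 3 alleles gave the same sign of change on the TMM scale for 9 of the 10 genes, with *mut-7* the exception at -0.20 in xf58, 0.13 in xf60 and 0.01 in xf61, and with *ego-1*, *mut-14* and *mut-16* turning from higher to lower in all 3 on library totals. These log2 differences are of normalized counts plus 2, each allele library minus the wild-type mean. The alleles differed most for *rde-8*, at -1.32 in xf58, -2.42 in xf60 and -2.32 in xf61. Next was *rrf-2* at 1.08, 1.72 and 1.97, followed by *ekl-1* at -0.26, -0.90 and -1.01. The change in xf58 was the smallest in size for 6 of the 10 genes, and xf60 and xf61 lay nearer to each other than xf58 did to either for 6 as well. The shares of all tested loci with the same sign or with these orders of alleles were not computed, so the counts describe the 10 genes only. For *mut-15* the alleles were within 0.07 of each other. With 1 library per allele a difference between alleles has no replicate check, so these values describe single strains.

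**Figure D5:**
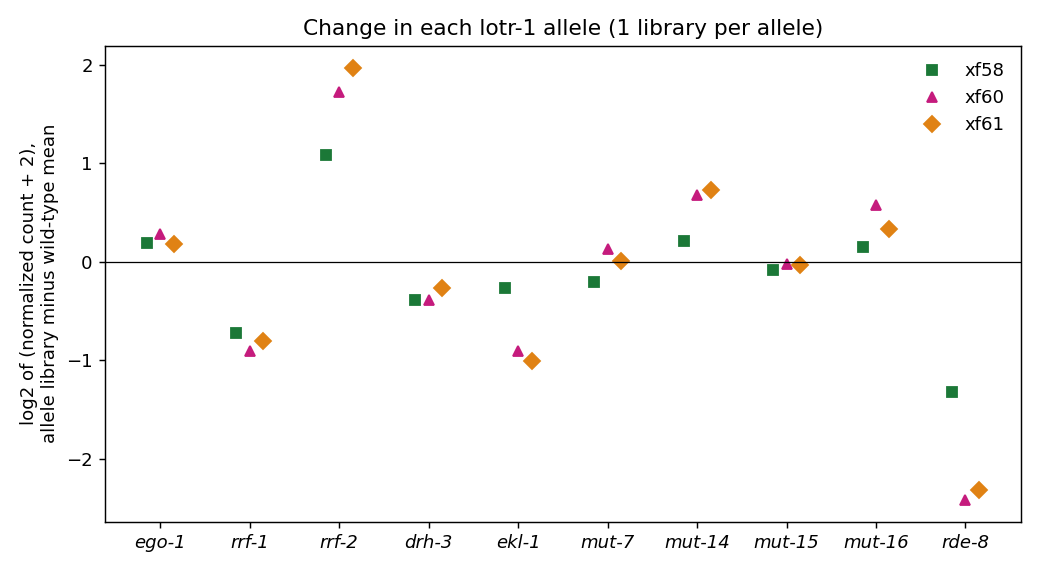
Log2 of normalized count plus 2 in each allele library minus the wild-type mean (y axis), for each of the 10 genes, with 1 point per allele and no error bars because each allele has 1 library. The xf60 and xf61 points of *rde-8* are at -2.42 and -2.32 while xf58 is at -1.32.

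A further 14 genes of the same pathway, listed by function with earlier results of these data known, give a frame for the 10. All 14 were tested, 4 were called lower, and 0 were called higher by edgeR or by DESeq2's test of no change. In each tool 1 higher gene had an unadjusted p under 0.05. Its adjusted p was also under 0.1 (edgeR 0.0529, DESeq2 0.0831), but its change was under 2-fold. At any fold, 9 of the 14 had an edgeR adjusted p under 0.1 (1 higher, 8 lower), beside 58.9% of all tested loci. The 4 lower calls are 28.6% of the list, against 17.6% of all tested loci called lower and 36.4% called in either direction. The list's median log2 fold change was -0.60 (range -2.28 to 0.45). Called lower was *cid-1*, a terminal uridylyltransferase gene also known as *cde-1*, with 848, 878 and 807 raw counts in wild-type against 161, 83 and 93 in the mutants (log2 fold change -1.98, SE 0.23, edgeR adjusted p = 0.000497). The second was *mut-2*, which encodes the nucleotidyltransferase that tails cleaved targets of RNA interference, with 153, 157 and 124 counts against 46, 18 and 16 (-1.50, SE 0.34, adjusted p = 0.00913). The third was *nyn-2*, a ribonuclease gene related to *rde-8*, with 209, 233 and 200 counts against 40, 64 and 48 (-1.12, SE 0.23, adjusted p = 0.00566). The remaining polymerase gene of the family, *rrf-3*, which acts in the synthesis of 26G-RNAs, had 214, 292 and 246 raw counts in wild-type against 111, 118 and 124 in the mutants. Its log2 fold change of -0.14 (SE 0.16, edgeR adjusted p = 0.485) missed the threshold with TMM, and with library totals *rrf-3* was called lower at -1.05 (edgeR adjusted p = 0.00132). Library totals called 10 of the 14 lower, with a median of -1.51, beside the background of 44.7% on that scale.

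The last called gene of that list was *smut-1*, the close paralogue of *mut-14*, on another part of chromosome V. It had 270, 266 and 271 raw counts in wild-type against 56, 15 and 17 in the mutants, while *mut-14* had 725, 832 and 678 in wild-type against 475, 565 and 661 in the mutants. Its log2 fold change was -2.28 (SE 0.42, edgeR adjusted p = 0.00381). The ratio of *mut-14* to *smut-1* was 2.69, 3.13 and 2.50 in wild-type against 8.48, 37.7 and 38.9 in the mutants, so the counts of the paralogues diverged whatever the scale. The authors placed each read with several matches at 1 of them at random, so counts of these 2 genes are uncertain as far as they share sequence. How many reads they share was not tested.

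The genes on either side of the 10 were compared as well. Of 18 distinct neighbours, 12 were tested, 1 was called higher and 2 lower, which is 25% against the background of 36.4%. The names that follow were picked after their values were seen. Beside *rrf-2*, the neighbour *Y47H10A.5* had a log2 fold change of 0.15 (edgeR adjusted p = 0.477) and *M01G12.14* had too few counts to be tested. Beside *rde-8*, *ZC477.3* was lower as well, at -1.70 (adjusted p = 0.00527), and *ZC477.4* had no count in any library. The other called neighbours were *prpf-4* beside *ekl-1* at -1.11 (adjusted p = 0.0174) and *glna-3* beside *drh-3* at 2.19 (adjusted p = 0.0506). The call of *glna-3* was lost with library totals, in the edgeR and DESeq2 tests against 2-fold, at an adjusted p under 0.05 and without wild-type replicate 2, wild-type replicate 3 or xf58, the last leaving 0.72 (edgeR adjusted p = 0.114). That of *prpf-4* was lost in the same tests against 2-fold and without xf60 or xf61, at -0.88 and -0.98, which are under 2-fold.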

How the data were processed

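Small RNAs of 3 wild-type and 3 *lotr-1* mutant libraries were analysed as deposited counts of 22G-RNAs per gene. Per the submitters' processing notes and the study's methods, the authors trimmed reads with cutadapt 2.4, mapped them to WBcel235 with Bowtie 1.2.2, placed a read with several matches at 1 of them at random, kept antisense reads of the 22G class, and made the deposited raw counts per gene or transposon family with featureCounts 1.6.2. SAMtools 1.9, bedtools 2.27.1 and DESeq2 1.30.0 are also named there. Random placement can move reads between similar genes.

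Gene symbols, coordinates and exon lengths came from the WBcel235 annotation of Ensembl release 115, while the authors used release 96. It held 22014 of the 22185 counted gene ids, and overlaps and neighbours were sought among those only. The counts were fitted with edgeR 4.0.16 in R 4.3.3 (filterByExpr, TMM factors, quasi-likelihood test) on all 9285 loci that passed, with Benjamini-Hochberg adjustment over them, and a locus was called at adjusted p under 0.1 and over 2-fold. Normalized counts are counts divided by TMM-scaled library size, set to the mean such size. Levels per allele used log2 of normalized count plus 2. Alternatives were library totals, size factors and tests of DESeq2 1.42.0, other filters and thresholds, a replicate block, and leaving out each library. The fit was tested on simulated data. Libraries were grouped by genotype in the labels. Depth was 3706296 to 4520488 counts a library, and the exact Poisson intervals (95%) cover counting error only.

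The text names all 10 genes, *lotr-1* as a check, the called genes among 14 others of the pathway, and *rrf-3*. Members and lists were chosen with earlier results of these data known. A comparison of sequence windows shared between genes was not run, as no genome was used here.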

Additional observations from a re-analysis of the deposited data

How the results depend on the processing

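The 2 calls among the 10 genes were kept with size factors, with TMM factors from genes alone, with DESeq2's test of no change, with either filter, with an adjusted p under 0.05, with edgeR's test against 2-fold and without any 1 library. They became 4 with library totals, 1 with DESeq2's test against 2-fold and 7 with no fold cutoff. In DESeq2's test against 2-fold *rde-8* was the call, while *rrf-2*, at a log2 fold change of 1.66, had an adjusted p of 0.137, the highest of its 18 settings (from 1.2e-10). The gene *rrf-2* was called in 16 of 18 settings and *rde-8* in 18 of 18 (adjusted p 1.94e-06 to 0.0714). Without 1 library at a time *rrf-2* ranged from 1.45 to 1.85 and *rde-8* from -2.52 to -1.82 on the log2 scale. Library totals reversed *ego-1* to -0.68, *mut-14* to -0.36 and *mut-16* to -0.55. For *mut-7*, leaving out libraries moved the value between -0.10 and 0.06, with 0.0400 without wild-type replicate 3 and 0.0644 without xf58. Library totals shifted the median of all tested loci by -0.90.

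Over all loci 3380 were called (1746 higher, 1634 lower), against 4955 with library totals (806 higher, 4149 lower), 1332 with DESeq2's test against 2-fold, 2005 with edgeR's test against 2-fold and 5467 with no fold cutoff. For the 14 other pathway genes those 4 settings gave 10, 2, 2 and 9 calls. For the neighbours they gave 6, 0, 1 and 6, with 0 neighbours at an unadjusted p under 0.05 in DESeq2's test against 2-fold, and 2 to 4 calls without 1 library. The cause of these differences was not tested.

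Wild-type and mutant libraries share replicate numbers in the labels, and the main fit did not treat the numbers as pairs. Deviations of same-numbered libraries from their group means correlated at 0.008, 0.034 and -0.034. These values cannot tell whether libraries were paired, because each mutant library is a different allele. With the replicate block 2 of the 10 genes, 3416 loci, 4 other pathway genes and 3 neighbours were called. At any fold, 5 of the 10 genes had an adjusted p under 0.1 in that fit, beside 54.3% of all tested loci. Depth limits *rde-8* most, at 9 to 24 counts in the mutants. The alternative for reads shared between genes was not run.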
